A study of Mus musculus with 10 samples.

Results

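Histone acetylation was described by 34 genes that write, erase or read acetyl groups on lysines or supply the acetyl-CoA from which these groups are made. The genes were chosen by their function, with earlier results of these data known. They were found in the tables by Ensembl identifier and are 34 of 38922 genes listed. All 34 had enough counts to be tested, among 13719 genes tested. They comprised 10 lysine acetyltransferases, 11 zinc-dependent histone deacetylases (HDACs), 7 sirtuins, 4 enzymes of acetyl-CoA supply and 2 bromodomain proteins of the BET family.

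RNA was measured in livers of 10 male C57BL/6N mice aged 6 weeks. Saline mice 1 to 5 were saline-injected controls. CD95-Ab mice 1 to 5 had 0.5 µg/g of CD95-Ab injected into the peritoneum, and all livers were taken at 6 h. CD95-Ab is an antibody that activates the death receptor Fas and drives hepatocytes into apoptosis, which makes it a model of acute liver failure. All mice were wild type, and each gave 1 library.

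Lysine acetyltransferases move the acetyl group of acetyl-CoA to histone tails, which loosens chromatin and marks active promoters and enhancers. Zinc-dependent HDACs and the NAD-dependent sirtuins remove it, and bromodomain proteins bind the acetylated lysine and bring in the transcription machinery. In hepatocytes the nuclear pool of acetyl-CoA comes mainly from citrate and acetate, so that acetylation of histones is tied to the fed or fasted state, while the mitochondrial sirtuins act on metabolic enzymes rather than on chromatin.

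Levels of a single gene are given in CPM, counts per 1000000 after TMM scaling of the totals, which ranged from 25965699 to 62097636 counts per mouse. The quasi-likelihood F-test of edgeR was used, and a gene passed at a Benjamini-Hochberg adjusted p (FDR, taken over all 13719 genes) of 0.05 or less. The RNA composition of the libraries differed between the groups. The 8 hepatocyte markers summed to 105174 to 131021 CPM in saline-injected controls and 49523 to 88764 CPM after CD95-Ab, where 3 of 8 fell, and albumin (Alb) fell by 1.03 on the log2 scale. All 7 neutrophil markers tested rose, from a sum of 4.19 to 10.7 CPM to one of 110 to 456 CPM. So did 7 of 8 lymphocyte, 6 of 7 sinusoidal endothelial, 4 of 6 stellate cell, 3 of 4 cholangiocyte and all 5 erythroid markers. Of the 8 macrophage markers, 2 (25%) rose and 6 did not pass. Of all genes tested, 25.4% passed as higher after CD95-Ab and 22.0% as lower. The summed CPM lay between 1.44 and 5.48 in saline and between 6.45 and 15.6 after CD95-Ab for lymphocyte markers, and likewise between 52.3 and 118 and between 179 and 358 for endothelial ones. It lay between 140.1 and 202 and then between 347 and 580.4 for stellate cells, between 3.01 and 4.62 and then between 23.8 and 99.6 for cholangiocytes, between 110.2 and 342 and then between 201 and 395 for macrophages, and between 135 and 323 and then between 1064 and 33995 for erythroid cells. No tested marker was at 0 in a whole group. All 5 tested RNAs without a poly(A) tail rose too, from a sum of 1.72 to 4.13 CPM to one of 377 to 1340 CPM. In RNA of whole liver, fewer cells of a type and less RNA per cell cannot be told apart. RNA quality and the part of these shifts in the values below were not tested.

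Of the 34 genes, 18 (52.9%) passed, beside 47.3% of all genes tested. Of them, 6 (17.6%, beside 25.4% of all genes) were higher after CD95-Ab and 12 (35.3%, beside 22.0%) were lower. The median log2 fold change over the 34 was -0.10, against 0.01 over all genes, and the median size of the change was 0.35, against 0.48. The share that passed was thus near that of all genes, the typical change was smaller, and the falls outnumbered the rises. In 11 genes (32.4%, beside 33.3% of all genes) no CD95-Ab mouse overlapped a saline mouse. These were 3 genes above (8.82%, beside 18.6%), Hat1, Hdac2 and Acss1, and 8 below (23.5%, beside 14.7%), Hdac11, Sirt3, Brd3, Crat, Sirt4, Acss2, Hdac5 and Sirt2. At a log2 fold change of 2 or more in size, 0 of the 34 were higher, beside 6.59% of all genes, and 1, Hdac11, was lower, beside 1.11%. The rises were the less stable side, since 3 rather than 6 genes were higher without saline mouse 1, 2 or 4 or without CD95-Ab mouse 2, 3 or 5. Of all genes, 3142 to 3341 were higher in those fits, beside 3480 with all mice. Setting the totals by the 8 hepatocyte markers, a scaling chosen after the data were seen, moved the median of all genes by 0.54, and 14 of the 34 were then higher and 3 (Hdac11, Sirt3 and Brd3) lower, beside 6585 higher and 616 lower of all genes. Every log2 fold change of a gene below is relative to the TMM scale unless another scaling is named.

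**Figure D1:**
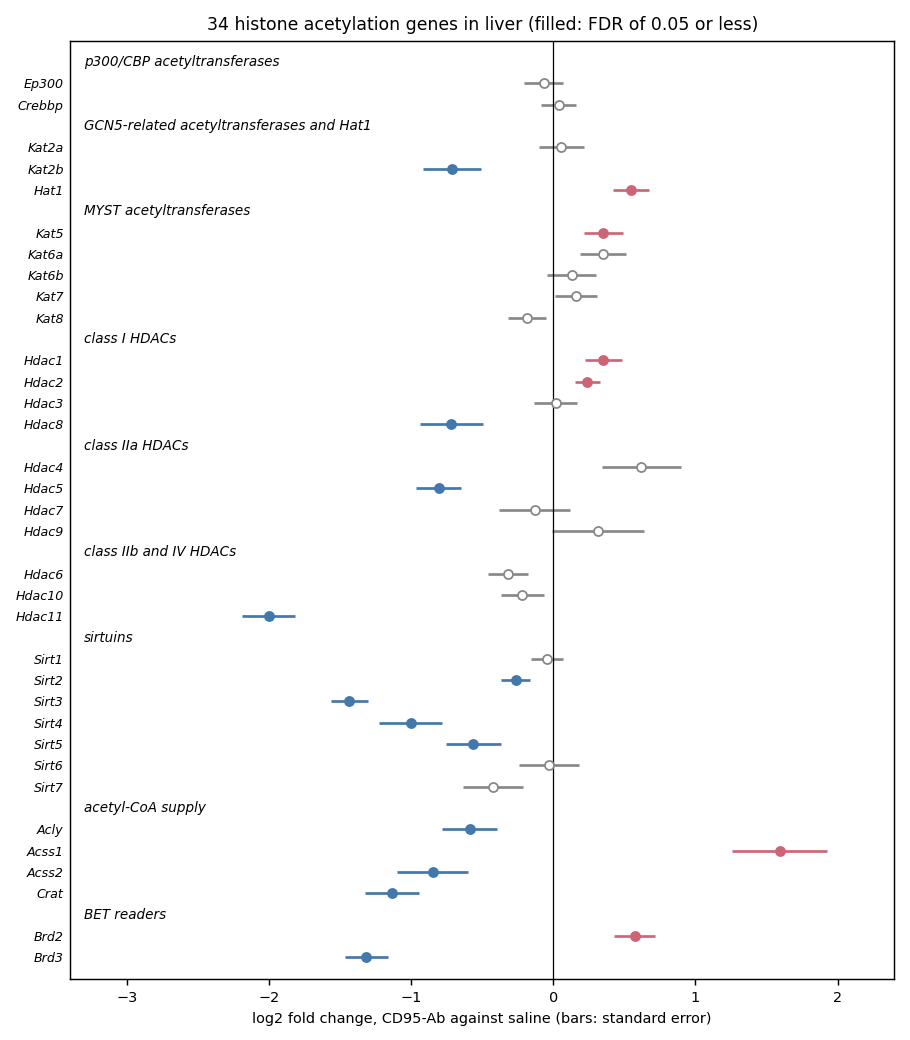
Log2 fold change (horizontal axis, CD95-Ab against saline) of the 34 genes, ordered by role, with bars for 1 standard error and filled points for an FDR of 0.05 or less. Filled points lie from -2.0 for Hdac11 to 1.59 for Acss1, and 12 of the 18 lie left of 0.

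Among the 10 acetyltransferases, 2 rose, 1 fell and 7 did not pass, beside 25.4% of all genes higher and 22.0% lower. Hat1 (chr2:71388958-71441622, plus strand; gene positions are on GRCm38), which acetylates newly made histone H4 before it is placed on DNA, rose. Its level was 7.48, 6.55, 5.97, 7.58 and 6.32 CPM in saline mice 1 to 5 and 9.66, 11.6, 10.5, 8.76 and 9.06 CPM in CD95-Ab mice 1 to 5. Every CD95-Ab mouse was above every saline mouse, and the rise was 1.46-fold (log2 fold change 0.55, SE 0.13, FDR = 0.0038).

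Kat2b, the PCAF acetyltransferase of the SAGA and ATAC coactivator complexes (chr17:53566861-53672720, plus strand), fell. Saline mice 1 to 5 had 80.8, 78.4, 91.1, 76.7 and 45.1 CPM of Kat2b and CD95-Ab mice 1 to 5 had 35.8, 46.8, 48.4, 34.6 and 61.3 CPM. The groups overlapped, because saline mouse 5 was lower than 3 of the CD95-Ab mice, and the fall was 1.64-fold (log2 fold change -0.71, SE 0.21, FDR = 0.013). Its close paralog Kat2a, or GCN5, which takes the same place in those complexes, had 13.9 ± 1.82 CPM (SD, n = 5) in saline and 14.4 ± 3.39 CPM after CD95-Ab and did not pass (FDR = 0.80).

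Kat5, the catalytic subunit Tip60 of the NuA4 complex, went from 6.86 ± 0.920 to 8.76 ± 1.0 CPM (SD, n = 5 per group), with 4 of 5 CD95-Ab mice above all saline mice (log2 fold change 0.35, FDR = 0.049). This rise passed in 2 of the 10 fits that left out 1 mouse, those without saline mouse 5 and without CD95-Ab mouse 1, and in the others its FDR was up to 0.12. It passed in 2 of the 9 other fits. Of the exon bases of Kat5, 12.1% are shared with Rnaseh2c on the opposite strand, and strand was not stated for the libraries, so reads there cannot be told apart. The other MYST-family acetyltransferases did not pass. Kat6a (MOZ) had a log2 fold change of 0.35 (FDR = 0.096; without CD95-Ab mouse 4 it was 0.44 and passed), Kat7 (HBO1) 0.16, Kat6b (MORF) 0.13 and Kat8 (MOF, which acetylates histone H4) -0.18.

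Ep300 and Crebbp encode p300 and CBP, the large coactivators that acetylate histone H3 at enhancers. Ep300 was 22.5 ± 2.91 CPM (SD, n = 5) in saline and 21.4 ± 3.49 CPM after CD95-Ab, and Crebbp 12.8 ± 1.53 and 13.2 ± 1.56 CPM. Neither passed (FDR = 0.71 and 0.82). The log2 fold change was -0.07 (SE 0.14) for Ep300 and 0.04 (SE 0.13) for Crebbp.

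The 11 zinc-dependent HDACs held the largest fall of the 34. Of these 11, 2 rose, 3 fell and 6 did not pass, beside 25.4% of all genes higher and 22.0% lower. Hdac11, the only class IV enzyme, which removes long fatty acyl groups as well as acetyl groups, lies on chr6:91156665-91174692, plus strand. Hdac11 was 41.4, 41.2, 34.5, 30.0 and 26.3 CPM in saline mice 1 to 5 and 10.9, 5.70, 8.44, 8.92 and 9.37 CPM in CD95-Ab mice 1 to 5. The lowest saline mouse was well above the highest CD95-Ab mouse, and the fall was 4.0-fold (log2 fold change -2.0, SE 0.19, FDR = 7.1e-06). It ranged from -2.10 to -1.88 when each mouse was left out in turn and was -1.46 with the totals set by hepatocyte markers. Its exons share 2.49% of their bases with Gm14573, which had a mean of 1 count, and 15.4% with Gm44002, not analysed here, both on the opposite strand.

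Hdac5, a class IIa enzyme that shuttles between nucleus and cytoplasm and holds back MEF2 factors (chr11:102194432-102230166, minus strand), fell as well. Saline mice 1 to 5 had 30.2, 33.7, 30.3, 28.2 and 28.2 CPM of Hdac5 and CD95-Ab mice 1 to 5 had 13.2, 14.1, 15.1, 22.5 and 21.2 CPM. All CD95-Ab mice were below all saline mice, with CD95-Ab mice 4 and 5 the nearest, and the fall was 1.75-fold (log2 fold change -0.81, SE 0.16, FDR = 0.0014). The other class IIa genes did not pass. Hdac4 had a log2 fold change of 0.62 (SE 0.28, FDR = 0.084), with 4 CD95-Ab mice between 3.30 and 3.81 CPM, CD95-Ab mouse 4 at 1.61 CPM and saline mice at 1.31 to 2.96 CPM. Hdac7 had -0.13 and Hdac9, at 0.833 ± 0.352 CPM in saline (SD, n = 5), 0.32. Without saline mouse 3 or without CD95-Ab mouse 4 Hdac4 passed, at 0.78 and 0.77.

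Of the class I enzymes, Hdac1 and Hdac2 are the catalytic pair of the Sin3, NuRD and CoREST corepressor complexes. Hdac2 was 15.3, 16.5, 15.3, 15.7 and 17.2 CPM in saline mice 1 to 5 and 17.9, 18.7, 19.2, 19.1 and 19.5 CPM in CD95-Ab mice 1 to 5. The groups did not overlap, and the rise was 1.18-fold (log2 fold change 0.24, SE 0.09, FDR = 0.044). Its partner Hdac1 rose from 17.2 ± 1.89 to 21.9 ± 3.48 CPM (SD, n = 5 per group; log2 fold change 0.35, FDR = 0.044), with 4 of 5 CD95-Ab mice above all saline mice. Both passed in only 1 of the 10 fits that left out 1 mouse, Hdac2 without saline mouse 5 and Hdac1 without CD95-Ab mouse 4, and the log2 fold changes of both were above 0 in all 10. Of the 9 other fits, Hdac2 passed in 2 and Hdac1 in 4, and on plain totals their FDR was 0.33 and 0.28. Hdac8, which deacetylates the cohesin subunit Smc3, fell from 2.65 ± 0.449 to 1.6 ± 0.453 CPM (log2 fold change -0.72, SE 0.22, FDR = 0.020), with 4 of 5 CD95-Ab mice below all saline mice. Hdac3, the deacetylase of the NCoR and SMRT corepressors, was 28.7 ± 4.52 CPM in saline and 29.0 ± 5.91 CPM after CD95-Ab and did not pass (FDR = 0.94).

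The class IIb genes did not pass. Hdac6, a deacetylase of tubulin, had a log2 fold change of -0.32 (FDR = 0.082) and Hdac10, which acts on polyamines, -0.22 (FDR = 0.25). Leaving out CD95-Ab mouse 4 brought both below the threshold of 0.05, at -0.41 and -0.36.

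Of all genes, 22.0% were lower and 25.4% higher, with a median log2 fold change of 0.01. Of the 7 sirtuins, 4 fell, 0 rose and 3 did not pass, with a median log2 fold change of -0.42. The 4 were the 3 mitochondrial enzymes Sirt3, Sirt4 and Sirt5 and the mainly cytoplasmic Sirt2, whose sign turned to 0.26 with the totals set by hepatocyte markers. Sirt3, the main deacetylase of mitochondrial proteins (chr7:140863666-140882309, minus strand), had 49.6, 47.8, 51.9, 54.4 and 56.0 CPM in saline mice 1 to 5 and 20.2, 15.2, 19.2, 24.1 and 17.4 CPM in CD95-Ab mice 1 to 5. All saline mice were nearly level, every CD95-Ab mouse was far below them, and the fall was 2.70-fold (log2 fold change -1.43, SE 0.13, FDR = 5.4e-06). The exons of Sirt3 share 7.0% of their bases with Ric8a and 5.73% with Psmd13, both on the opposite strand.

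Sirt4, which acts as a lipoamidase and ADP-ribosyltransferase on mitochondrial enzymes (chr5:115478010-115484725, minus strand), had a mean of 4.34 FPKM in saline, against 41.5 FPKM for Sirt3. Sirt4 was 4.61, 5.07, 4.48, 5.89 and 5.64 CPM in saline mice 1 to 5 and 1.54, 2.48, 2.19, 3.88 and 2.72 CPM in CD95-Ab mice 1 to 5. The groups did not overlap, CD95-Ab mouse 4 came closest to the saline mice, and the fall was 2.01-fold (log2 fold change -1.0, SE 0.22, FDR = 0.0028). Sirt5, the mitochondrial desuccinylase, fell from 8.18 ± 1.39 to 5.56 ± 1.51 CPM (SD, n = 5 per group; log2 fold change -0.56, FDR = 0.031), with 4 of 5 CD95-Ab mice below all saline mice. It did not pass without saline mouse 5 or without CD95-Ab mouse 1, 2 or 5, where its FDR was up to 0.073.

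Sirt2, a deacetylase of tubulin and of histone H4, was 39.1, 40.5, 35.8, 36.6 and 46.1 CPM in saline mice 1 to 5 and 33.3, 32.5, 33.5, 35.2 and 30.6 CPM in CD95-Ab mice 1 to 5. The groups did not overlap but almost met, at 35.8 and 35.2 CPM (log2 fold change -0.26, SE 0.10, FDR = 0.049). Only the fits without saline mouse 3 or without CD95-Ab mouse 4 kept Sirt2 past the threshold among the 10 that left out 1 mouse, and 5 of the 9 other fits did. The 3 sirtuins that act on chromatin in the nucleus did not pass. Sirt1, a deacetylase of histones and of PGC-1α, had a log2 fold change of -0.05 (SE 0.11). That of Sirt6, a histone H3 deacetylase, was -0.03 (SE 0.21) and that of the nucleolar Sirt7 -0.42 (SE 0.21, FDR = 0.12). Sirt7 passed without CD95-Ab mouse 4, which had 36.0 CPM beside 17.0 to 22.1 CPM in the others, with a log2 fold change of -0.68. In Sirt7, 4 of 5 CD95-Ab mice were below all saline mice. It passed in 2 of the 9 other fits, on plain totals (-0.52, FDR = 0.028) and on FPKM with limma (-0.54, FDR = 0.017).

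**Figure D2:**
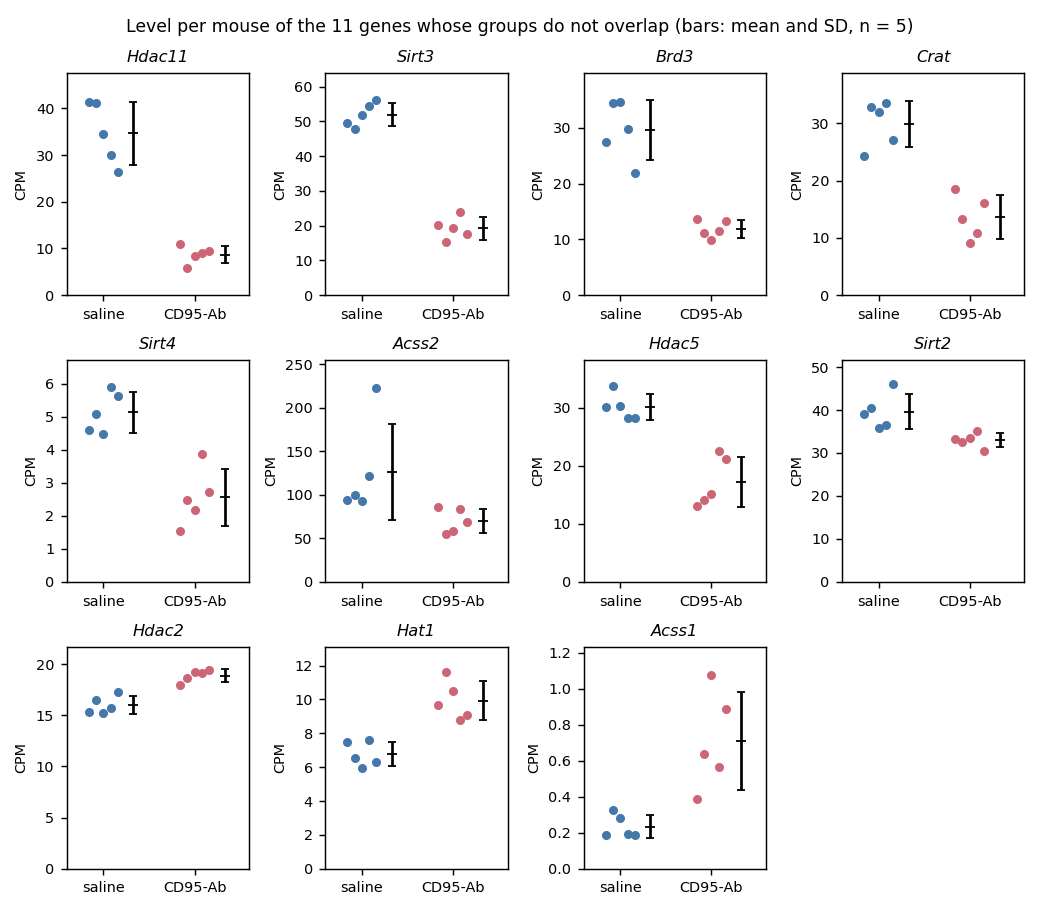
CPM (vertical axes, from 0) in each mouse for the 11 genes whose groups do not overlap, with points in mouse order 1 to 5 and bars for the mean and SD (n = 5). Among the 8 genes below saline, Hdac11, Sirt3 and Brd3 have the largest folds, Acss1 rises 3.02-fold from few counts, and saline mouse 5 stands at 223 CPM for Acss2.

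Of the 4 enzymes of acetyl-CoA supply, 3 fell and 1 rose, beside 22.0% of all genes lower and 25.4% higher. Acly splits cytosolic citrate into acetyl-CoA and oxaloacetate (chr11:100476353-100528000, minus strand). Acly was 229, 134, 131, 124 and 157 CPM in saline mice 1 to 5 and 131, 105, 102, 74.8 and 103 CPM in CD95-Ab mice 1 to 5. In Acly, 4 CD95-Ab mice were below all saline mice and CD95-Ab mouse 1 was level with the lower saline mice, and the fall was 1.5-fold (log2 fold change -0.59, SE 0.19, FDR = 0.026). It did not pass without saline mouse 1, at -0.41, or without CD95-Ab mouse 2, 3 or 4, where its FDR was between 0.051 and 0.053.

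Acss2 makes acetyl-CoA from acetate in cytosol and nucleus (chr2:155517948-155585724, plus strand). Saline mice 1 to 5 had 94.2, 99.7, 93.1, 122 and 223 CPM of Acss2 and CD95-Ab mice 1 to 5 had 85.8, 55.3, 58.2, 83.2 and 69.1 CPM. All CD95-Ab mice were below all saline mice, and saline mouse 5 stood far above the rest of its group. The fall was 1.80-fold (log2 fold change -0.85, SE 0.25, FDR = 0.015), and without saline mouse 5 it was -0.54 and passed. Its exons share 3.89% of their bases with Gss on the opposite strand.

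Crat, carnitine acetyltransferase, moves acetyl groups between CoA and carnitine and so buffers acetyl-CoA in mitochondria and peroxisomes (chr2:30400471-30415813, minus strand). Crat was 24.3, 32.8, 31.9, 33.6 and 27.0 CPM in saline mice 1 to 5 and 18.5, 13.3, 9.12, 10.8 and 16.2 CPM in CD95-Ab mice 1 to 5. The groups did not overlap and the fall was 2.20-fold (log2 fold change -1.14, SE 0.19, FDR = 0.00044). Acss1, the mitochondrial acetyl-CoA synthetase (chr2:150618105-150668500, minus strand), had the lowest mean FPKM of the 34 genes, with 5 to 40 counts per mouse. It had 0.188, 0.326, 0.282, 0.192 and 0.185 CPM in saline mice 1 to 5 and 0.385, 0.637, 1.07, 0.565 and 0.886 CPM in CD95-Ab mice 1 to 5. Each CD95-Ab mouse was above each saline mouse (3.02-fold, log2 fold change 1.59, SE 0.34, FDR = 0.0022), although both groups remained near or under 1 CPM.

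The 2 BET readers moved in opposite directions. Brd2 and Brd3 both carry a tandem of bromodomains that binds acetylated histone H4 and H3. Brd3 (chr2:27445579-27507662, minus strand) was 27.4, 34.4, 34.7, 29.8 and 21.8 CPM in saline mice 1 to 5 and 13.7, 11.2, 9.79, 11.5 and 13.3 CPM in CD95-Ab mice 1 to 5. The groups did not overlap and the fall was 2.49-fold (log2 fold change -1.32, SE 0.15, FDR = 3.0e-05). Brd2 (chr17:34112023-34122634, minus strand) was 68.8, 92.1, 70.0, 67.8 and 60.2 CPM in saline mice 1 to 5 and 109.7, 94.2, 89.6, 121 and 119 CPM in CD95-Ab mice 1 to 5. In Brd2, 4 CD95-Ab mice were above all saline mice and CD95-Ab mouse 3 was just under saline mouse 2, and the rise was 1.49-fold (log2 fold change 0.57, SE 0.14, FDR = 0.0059). Brd2 did not pass on plain totals (FDR = 0.061) or on FPKM with limma (FDR = 0.096), and its exons share 4.60% of their bases with H2-DMa on the opposite strand.

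Sequence upstream of the start site was available from RefSeq (GRCm38.p6) for 29 of the 34 genes. The others were Kat6a, Hdac1, Hdac3, Hdac10 and Crat. Windows of 250 bases before the RefSeq start nearest to the annotated gene start were searched on both strands for 9 short motifs, none of which contains another. For Brd3, Sirt1, Kat6b and Hdac4 that RefSeq start lies well inside the annotated gene, so the window is not the sequence before the annotated gene start. The stretches below belong to the genes with the largest falls among HDACs and readers, to Brd2, which rose while Brd3 fell, and to Acly and Acss2, which supply the same cytosolic pool. They are printed 5′ to 3′ on the strand of the gene, only where no exon of the GENCODE annotation lies, and capitals mark the motif letters. Positions are counted from the start site, with -1 the base before it.
Hdac11: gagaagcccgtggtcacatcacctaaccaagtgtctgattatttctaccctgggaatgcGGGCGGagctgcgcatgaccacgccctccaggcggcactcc
Hdac5: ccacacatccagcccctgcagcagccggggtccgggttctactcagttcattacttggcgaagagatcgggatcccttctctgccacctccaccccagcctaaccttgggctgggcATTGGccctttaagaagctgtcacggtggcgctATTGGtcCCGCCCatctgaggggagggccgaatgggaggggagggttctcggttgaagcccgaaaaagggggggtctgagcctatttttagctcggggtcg
Brd3: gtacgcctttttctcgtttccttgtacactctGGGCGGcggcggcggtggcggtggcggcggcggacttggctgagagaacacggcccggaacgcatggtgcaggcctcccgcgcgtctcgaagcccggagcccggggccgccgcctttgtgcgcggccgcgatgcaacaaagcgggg
Brd2: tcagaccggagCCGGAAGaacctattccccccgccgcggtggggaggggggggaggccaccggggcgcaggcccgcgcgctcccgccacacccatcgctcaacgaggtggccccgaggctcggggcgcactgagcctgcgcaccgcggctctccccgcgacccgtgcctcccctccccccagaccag
Acly: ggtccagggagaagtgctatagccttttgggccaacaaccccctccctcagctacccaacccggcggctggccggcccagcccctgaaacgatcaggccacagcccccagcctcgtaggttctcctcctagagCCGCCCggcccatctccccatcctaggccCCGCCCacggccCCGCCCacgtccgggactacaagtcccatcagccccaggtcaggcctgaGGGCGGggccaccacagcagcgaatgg
Acss2: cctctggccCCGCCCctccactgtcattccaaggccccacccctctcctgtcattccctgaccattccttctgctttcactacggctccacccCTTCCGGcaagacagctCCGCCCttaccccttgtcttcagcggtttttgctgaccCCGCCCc

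The Hdac11 stretch is chr6:91156565-91156664 (plus strand) and holds 1 GC box (GGGCGG, or CCGCCC on the other strand) at -191 to -186. That of Hdac5 is chr11:102230173-102230422 (minus strand) and holds a GC box beside CCAAT boxes (CCAAT, or ATTGG). The Brd3 stretch, chr2:27475399-27475576 (minus strand), lies inside the annotated gene, which starts at 27507662. It holds a GC box at -146 to -141 from the RefSeq start used. The Brd2 stretch, chr17:34122635-34122821 (minus strand), holds no GC box and holds an ETS site (CCGGAAG, or CTTCCGG) at -203 to -197. Nearer its start, at -17 to -8, Brd2 also has an NRF1 site (GCGCATGCGC). Acly (chr11:100528001-100528250, minus strand) has 4 GC boxes, at -117, -88, -76 and -27, and Acss2 (chr2:155517793-155517947, plus strand) has GC boxes at -241, -140, -102 and, beyond the printed stretch, -37.

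The GC box was the most common motif in these windows. It was in 18 of the 29 (62.1%, beside 32.7% of 32851 windows of the same length), in 3 of the 5 matched genes that rose and in 7 of the 11 that fell. The CCAAT box was in 13 (44.8%, beside 33.8%), the ETS site in 6 (20.7%, beside 6.91%) and the NRF1 site in 2 (6.90%, beside 0.782%). The E-box CACGTG was in 3 (10.3%, beside 6.02%) and the AP-1 site TGACTCA in 1, Kat2b (3.45%, beside 4.46%). The CRE TGACGTCA (1.55% of all windows), the sterol response element TCACNCCAC (1.05%) and the NF-kB site GGGANTTTCC (0.356%) were in none of the 29, which says only that these letters are not in these windows. The windows of the 29 had a median GC content of 61.6%, beside 52.4% of all windows.

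Levels between genes were compared in FPKM, fragments scaled by transcript length and by the total of the mouse, as deposited. In saline-injected controls the highest mean FPKM were those of Acss2 (45.0 ± 13.6), Acly (44.0 ± 16.3), Sirt3 (41.5 ± 2.92), Brd2 (27.3 ± 10.9) and Sirt2 (23.5 ± 2.49; SD, n = 5). The lowest were those of Hdac4 (0.556 ± 0.205), Hdac9 (0.200 ± 0.0949) and Acss1 (0.0800 ± 0.0255). A mean of 10 FPKM or more was found for 10 genes and one under 1 FPKM for 3, and in 31 of the 33 pairs of neighbours in this order the saline mice overlapped. After CD95-Ab, Brd2 had the highest mean, 37.4 ± 8.22 FPKM, and Hdac11 went from place 9 of 34 to place 19.

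The make-up of the HDACs and sirtuins differed with these genes. Hdac11 held 20.4% ± 3.39 of the summed FPKM of the 11 zinc-dependent HDACs in saline (range 15.3 to 23.4%) and 6.41% ± 2.12 after CD95-Ab (3.87 to 9.57%; SD, n = 5 per group). Sirt3 held 42.1% ± 3.28 of the summed FPKM of the sirtuins in saline (37.7 to 45.4%) and 25.7% ± 2.52 after CD95-Ab (22.7 to 29.5%). The ranges of the groups did not overlap for either gene. The summed FPKM, which has no TMM scaling, went from 98.8 ± 5.28 to 56.3 ± 5.54 for the sirtuins and from 98.9 ± 16.9 to 56.8 ± 14.3 for acetyl-CoA supply. It went from 71.9 ± 9.59 to 56.0 ± 4.16 for the zinc-dependent HDACs. For the acetyltransferases it was 49.3 ± 8.13 in saline and 43.8 ± 5.69 after CD95-Ab, with overlapping ranges (35.3 to 55.5 and 36.2 to 49.4).

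**Figure D3:**
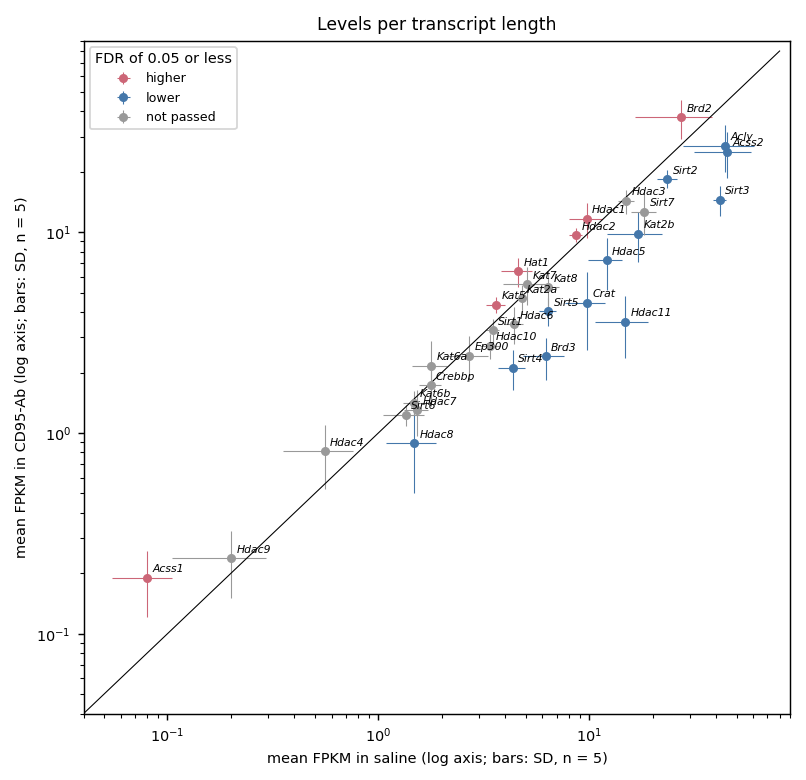
Mean FPKM in CD95-Ab mice (vertical log axis) against saline-injected controls (horizontal log axis) for the 34 genes, with bars for the SD (n = 5) and a line at equal levels. Sirt3, Hdac11, Brd3 and Crat lie furthest below the line, and Acss1 above it lies at the low end of both axes.

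The balance of paralogs and alternative enzymes does not depend on how the totals are scaled, so 9 pairs were compared by the log2 ratio of their counts within each mouse, with the exact permutation test (two-sided, adjusted over the 9 pairs; the smallest p that 5 against 5 allows is 0.00794). The log2 ratio of Brd2 to Brd3 was 1.33, 1.42, 1.01, 1.19 and 1.46 in saline mice 1 to 5 and 3.0, 3.07, 3.19, 3.40 and 3.16 in CD95-Ab mice 1 to 5. It was thus tight within each group and higher in all CD95-Ab mice, by 1.88 (SE 0.11, exact permutation p = 0.00794, adjusted p = 0.036). The log2 ratio of Acss1 to Acss2, the mitochondrial and the cytosolic acetyl-CoA synthetase, was -8.94 ± 0.795 in saline and -6.66 ± 0.789 after CD95-Ab (SD, n = 5 per group). The groups did not overlap and the ratio rose by 2.28 (SE 0.50, exact permutation p = 0.00794, adjusted p = 0.036), with Acss1 at few counts in every mouse. With 1 mouse left out the exact test cannot go below 0.0159, and the adjusted p of both ratios was 0.048 without saline mouse 5 or without CD95-Ab mouse 4 and 0.071 without any other mouse.

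The other 7 pairs did not pass. Hdac4 to Hdac5 differed by 1.45 (SE 0.39, exact permutation p = 0.0238, adjusted p = 0.071), with 4 CD95-Ab mice between -2.47 and -1.82, CD95-Ab mouse 4 at -3.79 and saline mice between -4.41 and -3.4. Without CD95-Ab mouse 4 the difference was 1.78 and passed in the exact permutation test (adjusted p = 0.048). Kat2a to Kat2b differed by 0.75 (SE 0.35, exact permutation p = 0.0635, adjusted p = 0.14), and without saline mouse 5 by 0.99 (adjusted p = 0.048, same exact test). The differences of Acly to Acss2 (0.21), Kat6a to Kat6b (0.19), Hdac1 to Hdac2 (0.10), Ep300 to Crebbp (-0.11) and Hdac7 to Hdac9 (-0.51) had exact permutation p between 0.349 and 0.571.

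**Figure D4:**
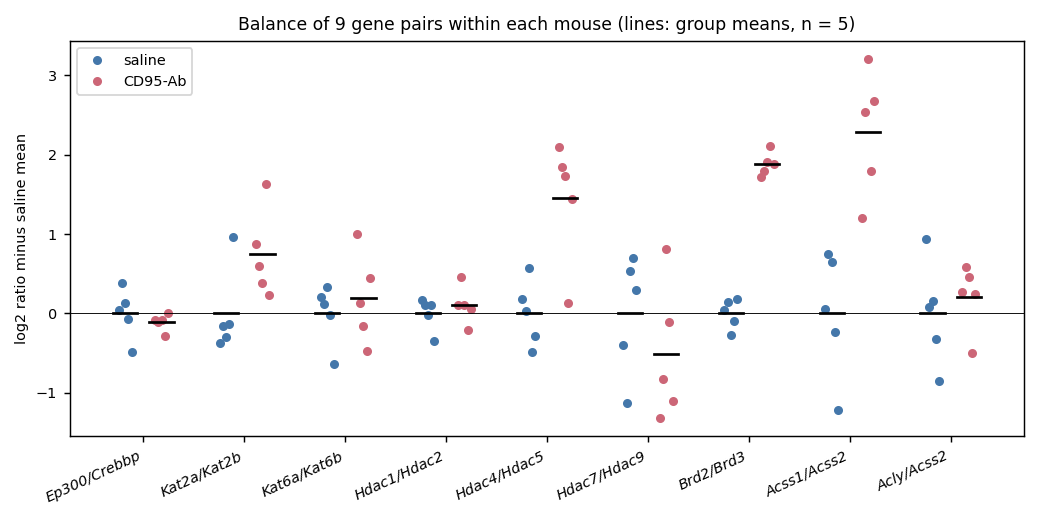
Log2 ratio within each mouse for 9 pairs of genes (vertical axis, minus the mean of the saline mice), saline mice left and CD95-Ab mice right of each tick, with lines for group means (n = 5). Brd2 to Brd3 and Acss1 to Acss2 show no overlap between groups, at 1.88 and 2.28 above saline.

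The partners of these enzymes were read from 6 further lists. Subunits of acetyltransferase complexes passed in 12 of 29 genes (41.4%), 5 higher and 7 lower, beside 47.3% of all genes. Jade2 rose (log2 fold change 1.25, FDR = 0.0021) while its paralog Jade1, like it a scaffold of the Kat7 complex, fell (-1.31, FDR = 0.00036). Ep400, the ATPase of the Kat5 complex, rose by 0.52 and Kansl3, a subunit of the Kat8 complex, fell by 0.75 on the log2 scale. The median of the list was -0.08.

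HDAC corepressor subunits passed in 11 of 31 tested genes (35.5%), 5 higher and 6 lower, with a median of -0.08. Without saline mouse 1, 7 passed, beside 43.0% of all genes in that fit. The lysine demethylase Kdm1a (log2 fold change 0.52, FDR = 0.00096) and Sap30 (0.95) rose, and the Sin3 subunits Suds3 (-0.75, FDR = 8.1e-05) and Sin3a (-0.66), the scaffold itself, fell. Other acetyl-lysine readers passed in 9 of 31 tested genes (29.0%), 5 higher and 4 lower, with a median of 0.04. Without saline mouse 2, 3 or 4, 6 of these readers passed, beside 42.5% to 43.5% of all genes in those fits. Baz1a (1.19), of the ACF chromatin remodeller, and Taf1 (1.1, FDR = 1.8e-05), of the general factor TFIID, rose, while Cecr2 (-0.94) and Smarca2 (-0.77), a SWI/SNF ATPase, fell. In these 3 lists of nuclear partners the share that passed was below that of all genes tested.

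The 3 lists that feed or regulate the enzymes had shares above the 47.3% of all genes, in 10 to 20 tested genes each. No list was tested as a set. The pyruvate dehydrogenase and citrate route passed in 13 of 20 genes (65%), 4 higher and 9 lower, with a median of -0.33. Of these 20, 9 passed without saline mouse 4 or without CD95-Ab mouse 2, beside 42.5% and 40.5% of all genes in those fits. Of the kinases that switch off pyruvate dehydrogenase, Pdk2 (log2 fold change -1.93, FDR = 1.6e-05) and Pdk1 (-1.08) fell and Pdk3 (1.98) rose. The phosphatase Pdp1 that switches it on rose (2.45, FDR = 0.00023). Pdk3 and Pdp1 were at low levels, with a mean of 0.322 CPM in saline and 1.28 CPM after CD95-Ab for Pdk3 and 0.750 and 4.11 CPM for Pdp1. Pdk2 had 79.3 and 20.8 CPM and Pdk1 43.6 and 20.7 CPM. Pdha1, the catalytic subunit that they act on, did not pass (-0.14, FDR = 0.41), and lactate dehydrogenase Ldha rose by 0.63 on the log2 scale (FDR = 0.019).

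Genes of NAD supply and use, the cofactor that sirtuins consume, passed in 8 of 11 tested genes (72.7%), 2 higher and 6 lower, with a median of -0.39. Without saline mouse 1 or 2 or without CD95-Ab mouse 1, 3 or 5, 6 genes of this list passed. In those fits 43.0% to 44.9% of all genes passed. The NAD glycohydrolase Cd38 rose (log2 fold change 1.82, FDR = 3.4e-06), as did Nampt, the first enzyme of NAD salvage (0.88). Nmnat3 (-0.97), the mitochondrial adenylyltransferase, and Nadsyn1 (-0.92), NAD synthetase, fell. The kinases and MEF2 partners of class IIa HDACs passed in 6 of 10 tested genes (60%), 5 higher and 1 lower, with a median of 0.30. Salt-inducible kinase 1, Sik1, which phosphorylates class IIa HDACs, rose (2.22, FDR = 0.00094), as did the factor Mef2c (1.63), and protein kinase Prkd3 fell (-1.65, FDR = 0.00033).

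**Figure D5:**
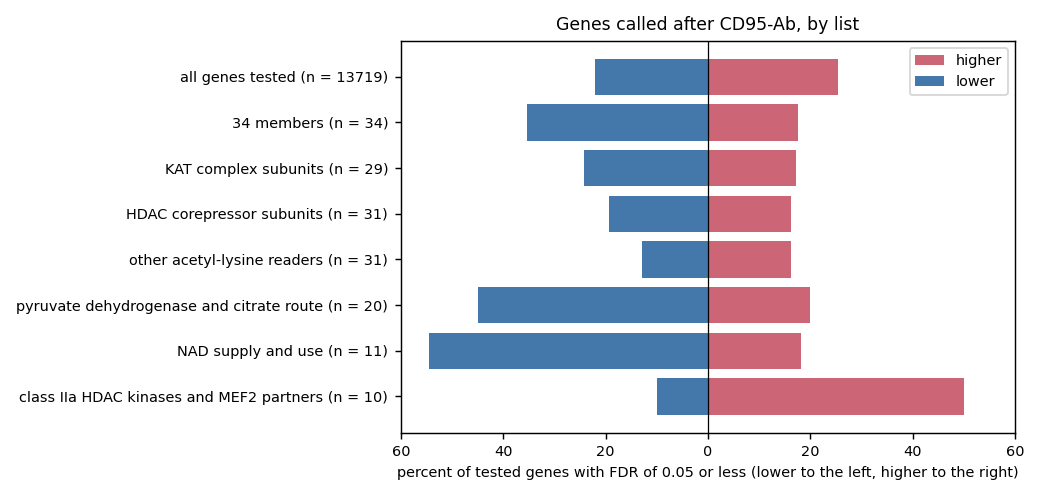
Percent of tested genes with an FDR of 0.05 or less (bars from 0, lower to the left and higher to the right) for all 13719 genes, the 34 genes of histone acetylation and the 6 lists of partners. The 34 genes have 17.6% higher and 35.3% lower, beside 25.4% and 22.0% of all genes.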

How the data were processed

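Liver RNA of 10 mice was sequenced as paired reads from TruSeq libraries. The authors assigned reads to genes with RSEM 1.2.19 and deposited an expected count and an FPKM per gene and mouse. The expected counts the authors deposited are whole numbers without normalization, and the deposited FPKM are scaled for transcript length and the total of each mouse. The genome build is not given in the sources used here, and the identifiers are mouse Ensembl genes although a human Gencode release is named for this step. RSEM shares reads between matching genes, so values of paralogs and overlapping genes depend on it. Symbols and positions came from GENCODE M21 (37606 of 38922 identifiers matched). A total of 15804 genes were at 0 throughout.

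Counts were filtered with filterByExpr (minimum count 10), scaled with TMM and compared by group in R 4.3.3 by the quasi-likelihood F-test of edgeR 4.0.16, with Benjamini-Hochberg adjustment over 13719 genes. Pair ratios used counts plus 0.5. Python 3.11.15 served for the summaries, through scipy 1.17.1 and pandas 2.3.3. The fit was tested on simulated data. Alternatives were DESeq2 1.42.0, limma 3.58.1 on log2(FPKM + 0.1), the likelihood ratio test, other scalings, filters, thresholds and pseudocounts, a replicate block, and fits that dropped 1 mouse at a time. The members and lists were chosen with earlier results of these data known. All 34 members are named, and of each list of partners the 2 largest rises and falls among genes that passed and whose higher group had no mouse under 10 counts, plus Pdha1 and Ldha. One further gene of the rule is not reported here. Of the marker lists, the gene of highest level is named for hepatocytes, and the others are given by their sums. At the lowest total, 3 counts were 0.116 CPM, a floor that covers counting error only. Each sample is 1 mouse.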

Additional observations from a re-analysis of the deposited data

Results flagged for a closer look

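In groups of 5 mice, 1 mouse stood far from the other 4 in 9 of 86 groups checked (34 genes and 9 pair ratios, in each group), where chance gives about 1 in 20. Saline mouse 5 and CD95-Ab mouse 4 account for 4 each. They had the lowest TMM factors of their groups, 0.869 and 0.849, and were the highest or lowest mouse of their group for 27 and 19 of the 34 genes.

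Saline mouse 5 had 36.6 CPM of Hdac3 (others 25.3 to 27.6), 12.6 CPM of Kat6b (others 7.83 to 9.08) and 223 CPM of Acss2 (others 93.1 to 122). Its log2 ratio of Kat2a to Kat2b was -1.43 (others -2.77 to -2.53). CD95-Ab mouse 4 had 39.2 CPM of Hdac3 (others 24.3 to 28.1), 20.3 CPM of Kat2a (others 12.0 to 13.7), 36.0 CPM of Sirt7 (others 17.0 to 22.1) and 1.61 CPM of Hdac4 (others 3.30 to 3.81). Saline mouse 4 had 11.1 CPM of Kat8 (others 8.66 to 9.17). Without both saline mouse 5 and CD95-Ab mouse 4, an alternative chosen after seeing the data, 8 of the 34 genes were higher and 12 lower. Of all genes, 3636 were higher and 3457 lower in that fit.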

How the results depend on the processing

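Of the 18 genes that passed, 10 passed in each of 9 other fits and in each of 10 that left out 1 mouse, 2 higher (Hat1 and Acss1) and 8 lower, except that Acss1 is absent where 10 counts in every mouse are required. Genes higher numbered 3 with upper quartile factors and 2 on plain totals, beside 3163 and 2878 of all genes (3480 in the main fit). They numbered 3 without a filter, beside 3780 of 23118 genes tested, and 2 with limma on FPKM, beside 2843. With 1 mouse left out they numbered 3 to 6, beside 3142 to 3581 of all genes. At an FDR of 0.01, 9 passed (3 higher, 6 lower), beside 1897 lower of all genes. At that threshold the share that passed and the share that was higher were larger among all genes than among the 34. The share that was lower was smaller among all genes. At a log2 fold change of 1 or more, 6 passed (1 higher, 5 lower), beside 3093 of all genes (2144 higher, 949 lower). With totals set by hepatocyte markers, an alternative added after seeing the data, 14 were higher and 3 lower, beside 6585 and 616 of all genes.

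Beside Sirt2, which passed and was 0.26 with totals set by hepatocyte markers, the genes that changed sign had not passed in the main fit. With that scaling Ep300 (0.49), Sirt6 (0.48), Kat8 (0.37), Hdac7 (0.36), Hdac10 (0.33), Hdac6 (0.24) and Sirt7 (0.11) turned positive and did not pass. Sirt1 turned to 0.50 and passed (FDR = 0.035). The other changes of sign were nearer 0. Crebbp was -0.0391, -0.0289 and -0.0448, Kat2a -0.0221, -0.0311 and -0.0425 and Hdac3 -0.0642, -0.0727 and -0.0672 with upper quartile factors, plain totals and FPKM. Hdac3 was -0.0205 without a filter and Kat6b -0.0560 on FPKM. With 1 mouse left out, Crebbp ranged from -0.0276 to 0.0888, Kat2a from -0.12 to 0.13, Hdac3 from -0.14 to 0.12, Hdac7 from -0.35 to 0.0476, Sirt1 from -0.0935 to 0.00046 and Sirt6 from -0.15 to 0.10. In those fits 7 to 13 HDAC corepressor subunits passed, beside 40.5% to 49.9% of all genes. The pair differences then ranged from 1.82 to 1.93 (Brd2 to Brd3), 1.98 to 2.55 (Acss1 to Acss2), 1.29 to 1.78 (Hdac4 to Hdac5), 0.52 to 0.99 (Kat2a to Kat2b), -0.0108 to 0.35 (Kat6a to Kat6b) and -0.0024 to 0.45 (Acly to Acss2). With a pseudocount of 5 counts, Hdac4 to Hdac5 was 1.43 and passed. The cause of these changes was not tested.

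Same-numbered mice had correlations of 0.31, 0.11, 0.16, -0.00 and -0.30, so the numbers were not taken to pair the mice. With a replicate block, 3 genes were higher and 11 lower, beside 3310 and 2677 of all genes. In that fit 9 of 20 genes of the pyruvate dehydrogenase and citrate route passed (beside 43.6% of all genes). The exact sign-flip test of the pairs (Brd2 to Brd3 1.88, Acss1 to Acss2 2.28) cannot go below 0.0625. Genes near 1 CPM, such as Acss1 and Hdac9, rest on few counts.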
